A study of Mus musculus with 4 samples.

Results

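The aquaporins are the channel proteins that carry water, and in some members glycerol or hydrogen peroxide, across cell membranes. 9 of their genes, Aqp1, Aqp2, Aqp3, Aqp4, Aqp5, Aqp7, Aqp8, Aqp9 and Aqp11, were followed over 4 mouse arrays of sorted bone marrow cells. They were taken by gene name and are read by 13 probes, out of 29353 named genes and 40628 gene probes on the array. The genes were chosen with their levels on these arrays known, so the values below describe them and no test was made.

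The 4 groups were LSK cells at day 10, LSK cells at day 0, CD45-negative cells at day 10 and CD45-negative cells at day 0, with 1 array each. All came from bone marrow of mice labelled C57BL6/J and 7 weeks old. The day 10 cells came from recipient mice after a sublethal radiation dose of 700 cGy and a tail vein transplant of 30000 LSK cells. The day 0 cells came from healthy mice that the labels call controls. LSK cells are lineage-negative, Sca-1-positive and c-kit-positive marrow cells, the fraction that holds the blood stem cells and early progenitors. The CD45-negative cells were taken as marrow stroma and are called niche cells in the labels. Donors carried the CD45.2 form of the leukocyte antigen CD45 and recipients the CD45.1 form. One label gives the stromal gate as CD45.1-negative and others as CD45-negative without a form. An antibody to CD45.1 does not bind cells of CD45.2 donors. The number of mice behind each array is not given in the sources used here, so no p-value or standard error between mice can be given.

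Aqp1 is the water channel of the red cell membrane and of small blood vessels. Aqp2 is the water channel that vasopressin moves to the surface of kidney collecting duct cells, where it lets urine be concentrated. Aqp3, Aqp7 and Aqp9 pass glycerol as well as water and are called aquaglyceroporins. Aqp8 passes water and hydrogen peroxide, and Aqp11 is a distant member found in the endoplasmic reticulum. In marrow, developing red cells take on their membrane channels as they mature, while fat cells, vessels and white cells carry other members.

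Each value below is either a processed signal, the scanner software's background-subtracted brightness of a spot, or a level, the log2 of that signal minus the 75th percentile of its array. Differences are between levels on 2 arrays, with day 0 taken from day 10 within a sort and CD45-negative cells taken from LSK cells within a day. A fold was taken as measured where a probe was well above background on both arrays, by the software's flag. Where it was so on only 1 array, the fold is a lower bound, written "at least", against the lowest level called above background on the other array. A difference of 2-fold or more was counted. That is a size and not a test, and the only errors at hand are the software's error of each spot and the spread of replicate spots within an array, which was 0.087 to 0.11 on the log2 scale. A level is not comparable between probes, so genes are compared by their differences and not by their levels.

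Between 52.0% and 59.4% of named genes were above background on an array. Ptprc, the CD45 gene, was above background in the CD45-negative sort on both days, with levels of 5.58 at day 10 and 3.10 at day 0. Kit, the stem cell factor receptor, had levels of 4.65 at day 10 and 5.04 at day 0 in LSK cells, against 1.94 and 1.52 in CD45-negative cells. Cxcl12, the chemokine of marrow stroma, had levels of 1.25 at day 10 and 4.40 at day 0 in CD45-negative cells. Alas2, the red cell enzyme of heme synthesis, had levels of 3.53 and 9.04 in those 2 sorts and was saturated in the second. A list of 14 red cell markers was lower in the CD45-negative sort at day 10. 4 of the 14, Hba-a1, Hbb-bt, Alas2 and Slc4a1, were saturated at day 0, and Hbb-bt also at day 10, so they are left out of the values here. All 10 others were at least 2-fold lower, against 20.2% of all genes with a difference. Their median difference was -4.81, against 0.20 over all genes with a difference. Their summed level, in multiples of the 75th percentile, was 46.2 at day 10 and 823 at day 0 in CD45-negative cells, and 6.96 and 12.6 in LSK cells. With a scaling on spike-in controls, described below, 8 of all 14, saturated ones included, were at least 2-fold lower and 2 higher. Over all genes with a difference, 1.05% were then at least 2-fold lower and 94.5% higher. The 2 higher markers were the saturated Hba-a1 and Hbb-bt, with differences of -1.44 and -1.48 before that shift. Their day 0 signals are capped, so neither rise was measured. In sorted bulk cells, fewer cells of a type and less RNA per cell cannot be told apart.

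Of the 9 aquaporins, 5 were above background in LSK cells at day 10, 7 in LSK cells at day 0, and 5 in the CD45-negative cells on each day. Aqp1, Aqp2, Aqp9 and Aqp11 were above background on all 4 arrays by at least 1 probe. Aqp3, Aqp5, Aqp7 and Aqp8 were so on some arrays. Aqp4, the water channel of brain astrocytes, was not above background on any array with any of its 3 probes.

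**Figure D1:**
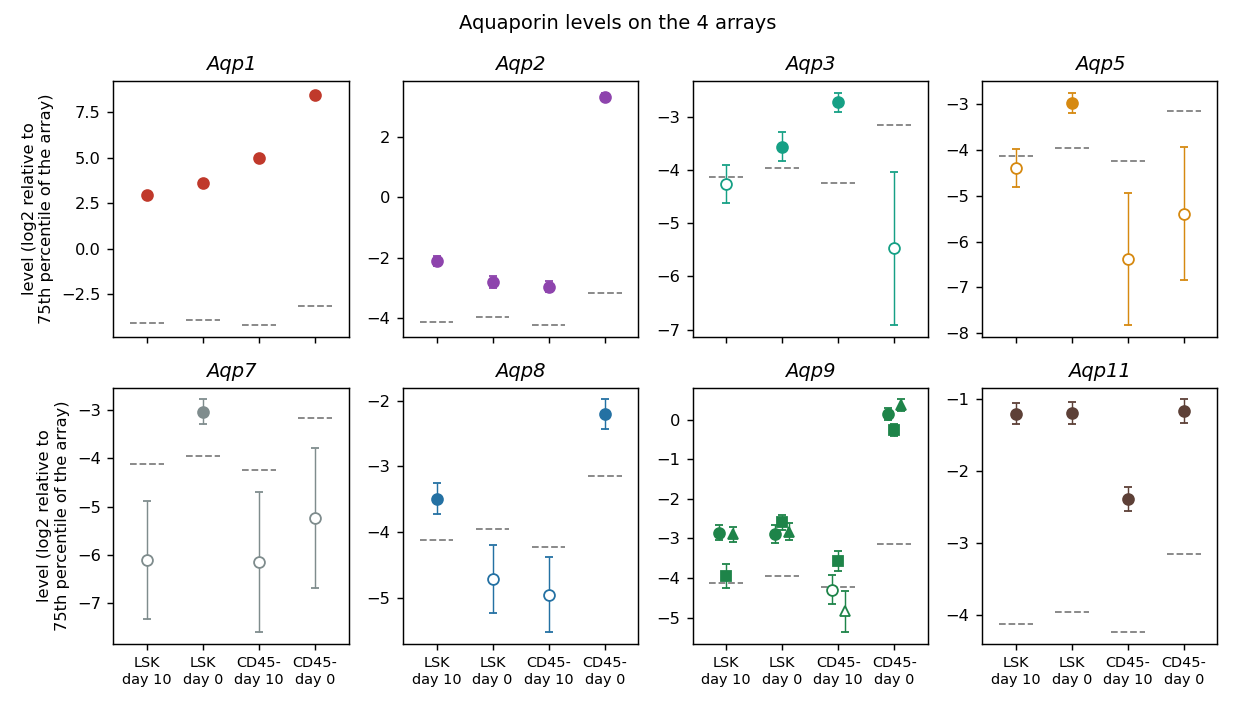
Levels of the 8 aquaporins above background on at least 1 array (y axis, log2 relative to the 75th percentile of the array, a separate range per gene) on the 4 arrays (x axis). Filled symbols were well above background and open symbols were not, bars are the software's spot error, dashed lines mark the lowest level called above background on each array, and the 3 Aqp9 symbols are its 3 probes (circle, probe 1; square, probe 2; triangle, probe 3). Aqp1, Aqp2 and Aqp9 were highest in CD45-negative cells at day 0, and Aqp11 was lowest in CD45-negative cells at day 10.

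In the CD45-negative sort, 5 aquaporins had a measured or bounded difference between day 10 and day 0. 4 of the 5, Aqp1, Aqp2, Aqp8 and Aqp11, were at least 2-fold lower at day 10, and 0 were at least 2-fold higher. Over all genes with a difference, 20.2% were at least 2-fold lower and 24.2% at least 2-fold higher. The median over the 5 aquaporins, which is the bound of Aqp8, was -2.03, and that over all measured genes 0.19. In LSK cells, 8 aquaporins had a difference. Aqp5 and Aqp7 were at least 2-fold lower at day 10, both as bounds, and 0 were at least 2-fold higher. There 3.57% of genes were at least 2-fold lower and 1.81% at least 2-fold higher. The median over the 8 was -0.28 and that over all measured genes -0.01.

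These directions in the CD45-negative sort rest on the scaling. A shift that sets the spike-in control probes level adds 3.25 to every CD45-negative day difference, and leaving the arrays unscaled adds 1.44. The median of all genes then becomes 3.44 and 1.63. Aqp2 was the 1 aquaporin of the 4 that remained at least 2-fold lower at day 10 under both. All other measured CD45-negative differences by day below, and list medians over measured genes, move by the same amounts. Those between -3.25 and 0 turn positive with the spike-in shift. A bound can instead be lost, as that of Aqp8 was. In LSK cells the 2 settings move a difference by day by -0.19 and 0.27.

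**Figure D2:**
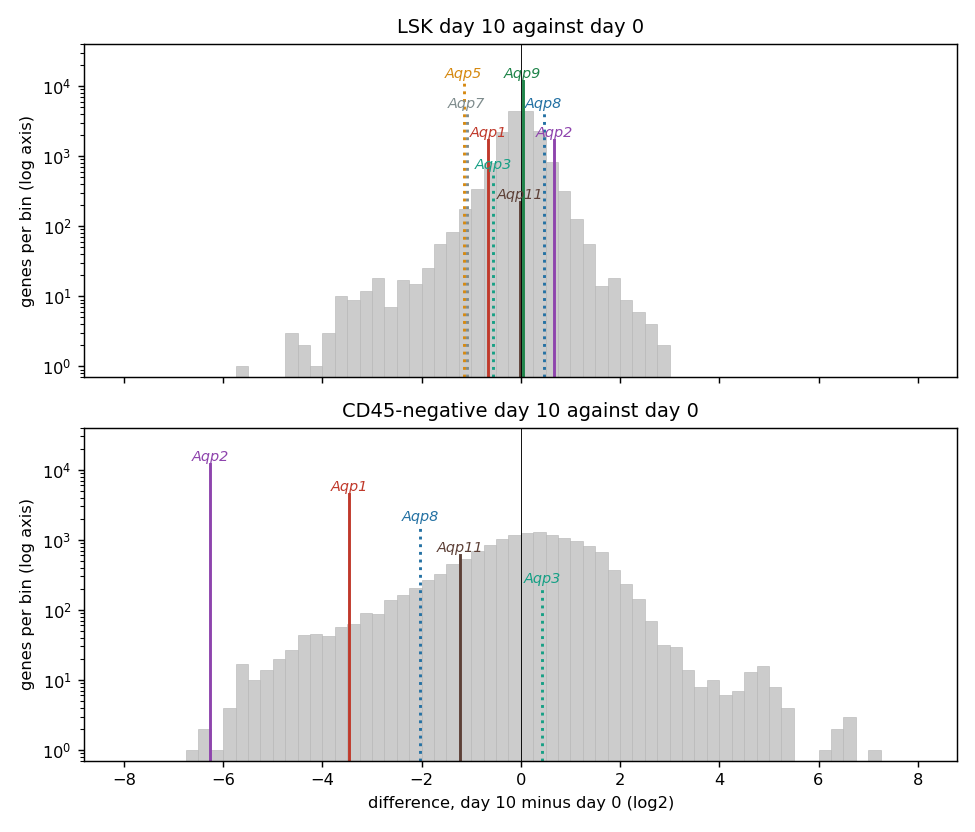
Number of genes per bin of 0.25 log2 units (y axis, log scale) against the difference day 10 minus day 0 (x axis, log2), in LSK cells (upper panel) and CD45-negative cells (lower panel). Vertical lines mark aquaporins, solid where measured and dotted where a bound. Aqp2 at -6.26 and Aqp1 at -3.46 lie in the lower tail of the CD45-negative panel, while all 8 aquaporins of the LSK panel lie between -1.16 and 0.67.

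Aqp1 had the highest signal of its own in CD45-negative cells at day 0. Its processed signal was 1865 in LSK cells at day 10 and 2453 at day 0, and 9941 in CD45-negative cells at day 10 and 40142 at day 0. The corresponding levels were 2.96, 3.63, 4.98 and 8.43, each with a spot error of 0.14, and no spot was saturated. All 4 levels lay above the lowest detected levels of the arrays, -4.24 to -3.15, and the CD45-negative sort was above the LSK sort on both days. In CD45-negative cells Aqp1 was 11.0-fold lower at day 10 than at day 0, a difference of -3.46. This was the 297th lowest of 14510 measured genes. With the spike-in shift the difference was -0.20, and unscaled it was -2.01. In LSK cells it differed by -0.66, the 1001st lowest of 16408 measured genes. LSK cells had 4.04-fold less Aqp1 signal than CD45-negative cells at day 10 (-2.02) and 28.0-fold less at day 0 (-4.81). The comparisons share arrays, so these differences are not independent of each other.

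The pattern of Aqp1 was set against that of 10473 genes above background on the same arrays, each centred on its own mean. The nearest by root mean square distance over the 4 arrays were Marchf2 at 0.087, Blvrb at 0.15 and Tfrc at 0.16 log2 units. Marchf2 encodes a ubiquitin ligase, Blvrb biliverdin reductase B and Tfrc the transferrin receptor.

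Aqp1 is also a blood group antigen of the red cell, so it was read beside a list of red cell membrane transport and blood group genes. All 21 of those on the array had a difference in the CD45-negative sort. 18 were at least 2-fold lower and 3 at least 2-fold higher at day 10, with a median of -3.41 against 0.20 over all genes. The shares over all genes were 20.2% lower and 24.2% higher. With the spike-in shift the counts were 4 lower and 5 higher, with a median of -0.15. For all genes with a difference that shift gave 1.05% lower and 94.5% higher. Among the largest differences were Kel at -5.09, Rhag at -4.91 and Ermap at -4.72. Kel encodes the red cell surface protein Kell, Rhag a gas and ammonium channel, and Ermap an erythroid membrane protein. Slc4a1, the anion exchanger band 3, had a level of 5.56 at day 10 and 9.11 at day 0 in CD45-negative cells, and was saturated at day 0. In LSK cells 2 of 20 such genes were at least 2-fold lower and 0 higher, with a median of -0.25. Over all genes with a difference in LSK cells, 3.57% were lower and 1.81% higher by that much. The Aqp1 difference of -3.46 was close to the median of this list. Of 10 endothelial markers 9 had a difference in the CD45-negative sort. 2 were at least 2-fold higher and 3 lower at day 10, with a median of -0.59. Of the 7 measured ones, 6 were higher and 0 lower with the spike-in shift. The part of red cell or vessel content in the Aqp1 values was not tested.

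The promoter of Aqp1 is shown because its difference lay beside those of red cell genes, whose promoters often hold GATA and CACCC motifs. The 250 bases before its RefSeq start lie at chr6:55336049-55336298 on the plus strand (GRCm38.p6, RefSeq). Capitals mark CACCC or its reverse complement GGGTG.
Aqp1 promoter: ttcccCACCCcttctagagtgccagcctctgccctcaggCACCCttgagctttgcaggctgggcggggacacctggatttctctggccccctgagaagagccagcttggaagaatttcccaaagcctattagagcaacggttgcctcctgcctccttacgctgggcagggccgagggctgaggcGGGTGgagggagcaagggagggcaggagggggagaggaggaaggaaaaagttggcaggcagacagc
It held 3 matches to CACCC on either strand, 245, 211 and 66 bases before the start. It held no AGATAA or TTATCT. Of 32851 mouse promoters of this length, 52.01% held CACCC and 9.99% held AGATAA on either strand. By their letters, matches to the 2 motifs cannot overlap each other. A match is a description of the letters and not a binding site.

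Aqp2 had the largest difference of the family. Its 1 probe reads the sequence below, shown because the result rests on this single spot per array. The probe has no stop codon in any of its 3 forward frames.
Aqp2 probe: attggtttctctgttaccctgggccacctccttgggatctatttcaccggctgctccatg
The longest run it shares with a probe of another gene is 13 bases, with Ins2 on the opposite strand, while the longest such runs of the family's 13 probes were 13 to 15 bases. The gene lies on chromosome 15.

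The processed signal of Aqp2 was 55.1 in LSK cells at day 10 and 28.7 at day 0, and 40.6 in CD45-negative cells at day 10 and 1146 at day 0. The levels were -2.12, -2.79, -2.96 and 3.30, with spot errors of 0.16, 0.20, 0.19 and 0.14. The spot was well above background on all 4 arrays. The other 3 arrays were within 1 log2 unit of each other, and CD45-negative cells at day 0 stood apart. LSK cells at day 0 and CD45-negative cells at day 10 differed by less than the error of either spot.

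In CD45-negative cells Aqp2 was 76.6-fold lower at day 10 than at day 0, a difference of -6.26 and the 3rd lowest of 14510 measured genes. Over the 11 alternatives other than the spike-in shift and no scaling it was -6.36 to -4.67. With the spike-in shift it was -3.01 and unscaled -4.82. In LSK cells the difference was 0.67, the 737th highest of 16408 measured genes, and 0.13 to 0.76 over those 11 alternatives. The difference between the 2 sorts in how Aqp2 differed by day was 6.93 and was not tested. LSK cells were 68.3-fold lower than CD45-negative cells at day 0 (-6.09), the 41st lowest of 14553 measured genes. At day 10 LSK cells were 0.84 above CD45-negative cells, which turns to -0.85 with the spike-in shift.

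Kidney genes were read beside Aqp2, since the collecting duct is its textbook site. Of 9 kidney tubule markers 1, Hsd11b2, was above background in the CD45-negative sort, on both days. Of all named genes, 56.2% at day 10 and 52.0% at day 0 were above background in that sort. Avpr2, the vasopressin receptor of the collecting duct, Scnn1b and Scnn1g, subunits of its sodium channel, and Umod, Slc12a1, Slc12a3, Cdh16 and Fxyd4 were not above background on any array. The summed level of the 9 was 0.256 at day 10 and 0.494 at day 0. Hsd11b2, which inactivates glucocorticoids, had a difference of -1.08, which was 2.17 with the spike-in shift. Over all genes with a difference in the CD45-negative sort, 24.2% were at least 2-fold higher and 20.2% lower. Of a wider list of 16 vasopressin and collecting duct genes, 3 had a difference in the CD45-negative sort, 2 at least 2-fold higher and 1 lower. The list has a median of 1.39 over those 3. They were Hsd11b2, the sodium channel subunit Scnn1a at 1.39, and Gata3, a transcription factor shared with lymphocytes, which was at least 8.59-fold higher at day 10. In LSK cells 4 of the 16 had a difference, 0 of them 2-fold, with a median of -0.32. Over all genes with a difference in LSK cells, 3.57% were at least 2-fold lower and 1.81% higher.

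The genes nearest to Aqp2 over the 4 arrays, of 10473, were Slc22a8 at 0.30, Ocstamp at 0.39 and Itsn1 at 0.52 log2 units. Slc22a8 encodes an organic anion transporter, Ocstamp a membrane protein of osteoclast fusion and Itsn1 an endocytic scaffold. Slc22a8 was on neither kidney list above, and had CD45-negative levels of -3.18 at day 10 and 2.41 at day 0. The 2 lists thus do not cover every transporter detected with the Aqp2 pattern.

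**Figure D3:**
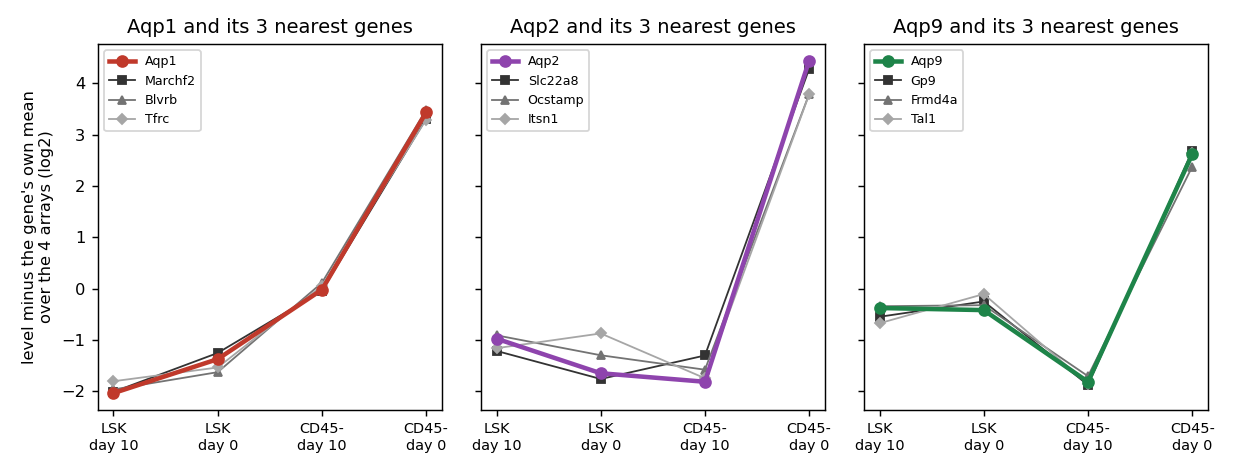
Levels of Aqp1, Aqp2 and Aqp9 with their 3 nearest genes, each minus its own mean over the 4 arrays (y axis, log2), on the 4 arrays (x axis). In all 3 panels CD45-negative cells at day 0 were highest. Aqp1 was intermediate in CD45-negative cells at day 10, whereas Aqp2 and Aqp9, by its main probe, had their lowest plotted levels there. For Aqp2 that level was within spot error of LSK cells at day 0, and for Aqp9 it was not above background. Aqp9 probe 2, not plotted, had its lowest level in LSK cells at day 10.

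The 250 bases before the Aqp2 start lie at chr15:99578806-99579055 on the plus strand (GRCm38.p6, RefSeq). They are shown because Aqp2 had the largest difference of the family, and were searched for the same 2 motifs. Capitals mark AGATAA or its reverse complement TTATCT, and CACCC or GGGTG.
Aqp2 promoter: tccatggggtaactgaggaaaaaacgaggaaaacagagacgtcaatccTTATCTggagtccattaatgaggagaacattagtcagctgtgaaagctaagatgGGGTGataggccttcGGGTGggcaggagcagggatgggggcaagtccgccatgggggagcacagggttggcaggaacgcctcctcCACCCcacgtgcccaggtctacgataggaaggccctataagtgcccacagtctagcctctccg
It held 1 TTATCT, 202 bases before the start, and 3 matches to CACCC on either strand, 148, 133 and 63 bases before it. Both motifs occurred together in 4.38% of the 32851 promoters. The promoters of Aqp3, Aqp5, Aqp8 and Aqp11 held CACCC but not AGATAA on either strand, those at the 2 RefSeq starts of Aqp7 held 1 motif each, and those at the 2 starts of Aqp9 held neither.

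Aqp9 passes glycerol, urea and other small solutes, and is the glycerol channel of mouse red cells and liver. Its 3 probes are read apart, because they differ in what they detect. The probes without a stop codon in some frame are shown, since the Aqp9 values depend on the probe.
Aqp9 probe 1: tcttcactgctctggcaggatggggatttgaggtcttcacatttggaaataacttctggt
Aqp9 probe 3: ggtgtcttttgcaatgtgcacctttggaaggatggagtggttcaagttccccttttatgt
Probe 2 has a stop codon in every frame and is not shown. The gene lies on chromosome 9.

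For Aqp9 probe 1 the signal was 33.1 in LSK cells at day 10 and 26.7 at day 0, and 16.1 in CD45-negative cells at day 10, not above background, and 128 at day 0. For Aqp9 probe 2 the signals on these arrays were 15.6, 33.0, 26.6 and 97.4, all above background. For Aqp9 probe 3 they were 32.2, 27.9, 11.0, not above background, and 149.8. All 3 probes were highest in CD45-negative cells at day 0. Aqp9 was 9.94-fold lower at day 10 than at day 0 in CD45-negative cells by probe 2, the only one above background on both arrays (-3.31, but -0.06 with the spike-in shift). By probe 1 it was at least 20.8-fold lower and by probe 3 at least 24.3-fold lower. In the count by main probe Aqp9 had no difference there, because the brightest probe was not above background while another probe was.

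In LSK cells the Aqp9 probes did not give 1 answer. Probe 1 differed by 0.04 and probe 3 by -0.06, both less than the spot errors of 0.20 to 0.22, while probe 2 was 2.55-fold lower at day 10. LSK cells were 8.20-fold lower than CD45-negative cells at day 0 by probe 1, 5.06-fold by probe 2 and 9.21-fold by probe 3. At day 10 LSK cells were at least 2.61-fold higher by probe 1 and at least 2.54-fold higher by probe 3, whereas probe 2 gave -0.38, and all 3 turn below 0 with the spike-in shift. The genes nearest to Aqp9, by its main probe, were Gp9 at 0.13, Frmd4a at 0.14 and Tal1 at 0.22 log2 units, with the CD45-negative day 10 level of that probe not above background. Gp9 encodes a platelet glycoprotein and Tal1 a transcription factor of blood stem, red and platelet cells.

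Aqp9 is also carried by human neutrophils, and glycerol is released by fat cells, so markers of both were read beside it. Of 8 neutrophil markers, 2 were saturated on some array and are left out. All 6 others were at least 2-fold higher at day 10 in the CD45-negative sort, with a median of 2.16 and a summed level of 338 at day 10 and 98.1 at day 0. Of 8 adipocyte markers 4 had a difference, 3 of them at least 2-fold lower, with a median of -2.11 that turns to 1.14 with the spike-in shift, and a summed level of 1.37 at day 10 and 5.28 at day 0. Over all genes with a difference in that sort, 24.2% were at least 2-fold higher and 20.2% lower. The part of neutrophils or fat cells in the Aqp9 values was not tested.

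Aqp3 is a glycerol channel of skin and of human red cells. Its signal was 12.5 in LSK cells at day 10, not above background, and 16.8 at day 0. It was 47.8 in CD45-negative cells at day 10 and 2.61 at day 0, the last not above background. Aqp3 was the 1 aquaporin with its highest signal in CD45-negative cells at day 10. The bound there was at least 1.35-fold higher than at day 0 (0.43), since the array of day 0 has a lowest detected level of -3.15. LSK cells were at least 1.47-fold lower at day 10 than at day 0, and at least 2.64-fold lower than CD45-negative cells at day 10. Its nearest genes by the 4 levels, of 11472, were Ltb, Hdac9 and Slc39a4, of which Ltb encodes lymphotoxin beta. As 2 of the 4 Aqp3 levels were not above background, with a spot error of 1.45 for the lowest, these distances were not measured and their order carries no weight. T and NK cell markers were at least 2-fold higher at day 10 in 7 of 7 with a difference in the CD45-negative sort, with a median of 4.78. B and plasma cell markers were so in 7 of 7, with a median of 2.44. Unsaturated neutrophil markers were so in 6 of 6, with a median of 2.16. Of 7 unsaturated monocyte and macrophage markers, 1 was at least 2-fold higher and 2 lower. Over all genes with a difference in that sort, 24.2% were at least 2-fold higher and 20.2% lower. The part of any of these cell types in the Aqp3 values was not tested.

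Aqp7 is the glycerol channel of fat cells. Its signal was 3.46 in LSK cells at day 10 and 24.3 at day 0, and 4.43 in CD45-negative cells at day 10 and 3.08 at day 0. Only LSK cells at day 0 were above background, so Aqp7 was at least 2.13-fold lower in LSK cells at day 10, and at least 1.09-fold higher in LSK than in CD45-negative cells at day 0. Its day difference of -1.09 was -0.41 with normexp background correction and -0.82 unscaled, both under 2-fold.

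Genes of glycerol and triglyceride handling were read beside these 3 channels. Of 15 with a difference in the CD45-negative sort, 8 were at least 2-fold higher and 2 lower at day 10, with a median of 1.04. The shares over all genes were 24.2% higher and 20.2% lower. Scaled on the spike-in probes, 14 were higher and 0 lower, while 94.5% of all genes with a difference were higher and 1.05% lower. The largest differences were Mgll at -2.78, Dgat1 at 2.24, Dgat2 at 2.18 and Agpat2 at 2.06. Mgll encodes the monoglyceride lipase, Dgat1 and Dgat2 the enzymes of the last step of triglyceride synthesis, and Agpat2 an earlier acyltransferase. Plin1, the coat protein of fat cell droplets, was not above background on any array. In LSK cells 0 of 15 were 2-fold different, with a median of 0.03, while 3.57% of all genes were lower and 1.81% higher.

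Aqp8 lets hydrogen peroxide as well as water through membranes. Its signal was 21.2 in LSK cells at day 10 and 7.58 at day 0, the second not above background. It was 10.2 in CD45-negative cells at day 10, not above background, and 25.2 at day 0. The order of the days was thus opposite in the 2 sorts, with at least 1.37-fold more in LSK cells at day 10 and at least 4.09-fold less in CD45-negative cells at day 10. The detected Aqp8 spots had levels of -3.50 in LSK cells at day 10 and -2.20 in CD45-negative cells at day 0, with spot errors of 0.24 and 0.22, within 1 log2 unit of the lowest detected level of their arrays. Unscaled, the CD45-negative bound was -0.59, and with the spike-in shift no bound could be set. LSK cells were at least 1.67-fold higher than CD45-negative cells at day 10 and at least 3.36-fold lower at day 0. Neither bound could be set with the spike-in shift, and the day 0 difference of -1.75 was under 2-fold with normexp (-0.83) and unscaled (-0.97). Its nearest genes by the 4 levels, of 10809, were Smok3a, Olfml3 and Ccin, which also rest on 2 levels not above background.

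Genes that make or remove hydrogen peroxide were read beside Aqp8. Of 17 with a difference in the CD45-negative sort, 6 were at least 2-fold higher and 6 lower at day 10, with a median of 0.14. The shares over all genes were 24.2% higher and 20.2% lower. Under the spike-in shift 16 were higher and 0 lower, with the saturated Prdx2 among the 16. Of all genes with a difference, 94.5% were then at least 2-fold higher. Gpx1 and Prdx2, which remove peroxides, were saturated at day 0, so they are only known to be at least 5.31-fold and at least 4.10-fold lower at day 10. Gpx4, another such enzyme, was at -1.90. Cybb, the catalytic subunit of the phagocyte oxidase, was at 1.82. In LSK cells 0 of 19 were 2-fold different, with a median of -0.08, while 3.57% of all genes were lower and 1.81% higher.

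Aqp5 is the water channel of salivary and tear glands. Its signal was 11.4 in LSK cells at day 10 and 25.4 at day 0, and 3.77 in CD45-negative cells at day 10 and 2.77 at day 0. Only LSK cells at day 0 were above background. Aqp5 was at least 2.23-fold lower in LSK cells at day 10 than at day 0, and at least 1.14-fold higher in LSK than in CD45-negative cells at day 0. Its day difference of -1.16 was -0.54 with normexp background correction and -0.89 unscaled. Aqp5 and Aqp2 are neighbours on chromosome 15, and Aqp2, not Aqp5, was above background in CD45-negative cells.

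Aqp11 is needed for normal kidney development in mice and was above background on all 4 arrays. Its signal was 104.3 in LSK cells at day 10 and 87.2 at day 0, and 60.2 in CD45-negative cells at day 10 and 51.9 at day 0. The levels were -1.20, -1.19, -2.39 and -1.16, with spot errors of 0.15 to 0.17. The 3 levels other than CD45-negative day 10 lay within 1 spot error of each other. Aqp11 was 2.34-fold lower at day 10 in CD45-negative cells (-1.23), but the difference was 2.02 with the spike-in shift and 0.21 unscaled. In LSK cells the difference was -0.01. LSK cells were 2.29-fold higher than CD45-negative cells at day 10 (1.19), but under 2-fold with normexp (0.70), quantile (0.99) and cyclic loess (0.92), and -0.50 with the spike-in shift. At day 0 the difference was -0.03, but 1.72 with the spike-in shift and 0.75 unscaled. Its nearest genes were Pabpc2 at 0.030, Nxph4 at 0.030 and Wasf1 at 0.051 log2 units.

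**Figure D4:**
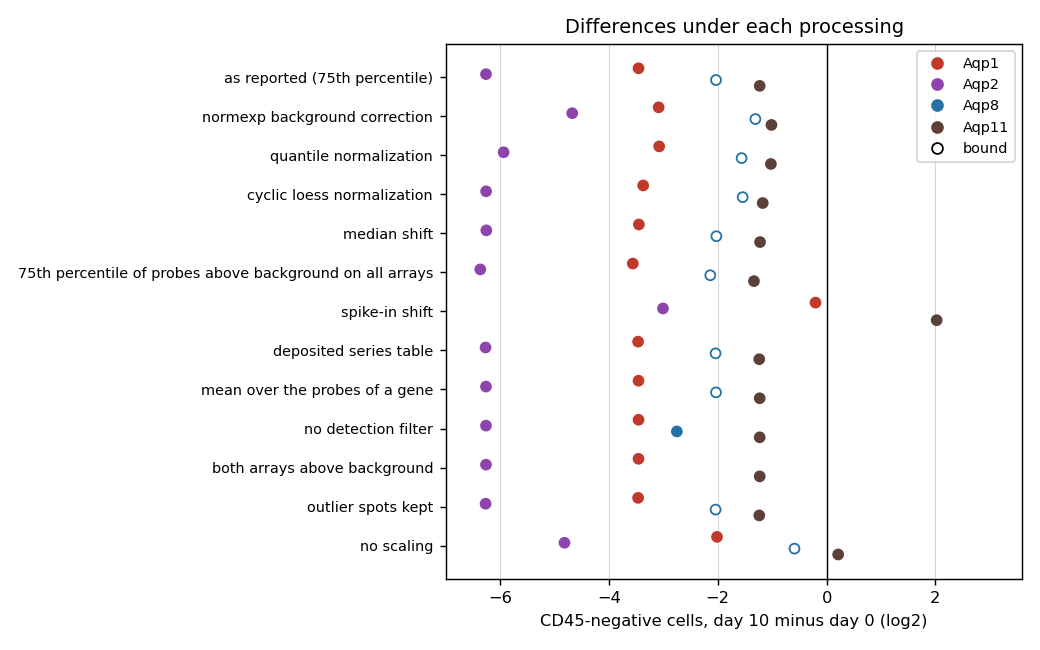
Difference day 10 minus day 0 in CD45-negative cells (x axis, log2) for Aqp1, Aqp2, Aqp8 and Aqp11 under each processing (y axis), with open symbols for bounds. Aqp2 was at -3.01 or lower under each of them, whereas Aqp11 lies above 0 with the spike-in shift and without scaling.

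Between the sorts, 7 aquaporins had a difference at day 0. LSK cells were at least 2-fold lower for Aqp1, Aqp2, Aqp8 and Aqp9, which are 4 of the 7, and 0 were 2-fold higher. Over all genes 19% were lower and 23% higher by that much. At day 10 5 had a difference. Aqp11 was at least 2-fold higher in LSK cells and Aqp1 and Aqp3 lower. Over all genes 12.9% were higher and 12.9% lower. The median over the aquaporins, which at both days is the bound of Aqp8, was -1.75 at day 0 and 0.74 at day 10, against 0.08 and 0.01 over all measured genes. The spike-in shift moves a difference between the sorts by 1.75 at day 0 and by -1.69 at day 10, and no scaling by 0.78 and -0.40. With the spike-in shift Aqp8 had no bound at either day, and Aqp1, Aqp2, Aqp3 and Aqp11 were all lower in LSK cells at day 10. At day 0 Aqp1, Aqp2 and Aqp9 by its main probe, probe 1, were then still at least 2-fold lower, at -3.06, -4.34 and -1.29. Aqp9 was at -1.45 by probe 3 but at -0.59, under 2-fold, by probe 2. Aqp3, Aqp5, Aqp7 and Aqp11 were then at least 2-fold higher in LSK cells at day 0. With that shift the median over all measured genes was 1.83 at day 0 and -1.69 at day 10. Of measured genes past 2-fold, 95.3% were then higher in LSK cells at day 0 and 0.9% at day 10.

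Genes that answer osmotic stress and set cell volume were also read, since aquaporins move water along osmotic gradients. Of 17 with a difference in the CD45-negative sort, 4 were at least 2-fold higher and 2 lower at day 10, with a median of 0.50 against 0.20 over all genes. The shares over all genes were 24.2% higher and 20.2% lower. With the spike-in shift all 16 measured ones were at least 2-fold higher, as were 94.5% of all genes with a difference. The largest were Stk39 at 2.53, a kinase of ion transport, Akr1b3 at 1.86, which makes the osmolyte sorbitol, Wnk1 at -1.71, a chloride-sensing kinase, and Hspa4l at -1.36, a chaperone of osmotic stress. In LSK cells 0 of 18 were 2-fold different, with a median of 0.08, while 3.57% of all genes were lower and 1.81% higher.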

How the data were processed

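RNA of 4 sorts, 1 array each, was labelled with Cy3 from 500 ng, per the labels' protocols. Scans were read by the authors in Agilent Feature Extraction, version 10.5.1.1 per the submitters' processing notes. Per the file headers, the spot values are fluorescence intensity values, as a mean, a local background and a background-subtracted processed signal. The deposited spot flags (unit: other) say whether a spot was detected, saturated or an outlier. The authors' series table is in log2 units and equals the log2 processed signal less 1 constant per array, within 0.001, for 99.977% or more of probes.

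Control and outlier spots were left out. The processed signal was taken to log2, spots of a probe were averaged, and the 75th percentile of each array was set to 0. A gene was read from its brightest probe by mean over the 4 arrays. RefSeq accessions gave current symbols for 28136 of 40628 gene probes. The design's build is mm9 per the file headers, and no probe coordinates are given. Promoters are RefSeq's on GRCm38.p6. Tools were R 4.3.3, limma 3.58.1 and Python 3.11.15. The members, gene lists and rules were chosen with earlier results of these data known. Named genes are all 9 aquaporins, the 3 nearest genes of each aquaporin above background on at least 2 arrays, the 4 members of each list with the largest absolute difference in CD45-negative cells, and Ptprc, Kit, Ly6a, Cxcl12, Alas2 and Slc4a1. 1 gene that this rule names is not reported here. Other list members are named where the text reads them beside an aquaporin. Ly6a, the Sca-1 gene, had levels of 2.86 (day 10) and 2.98 (day 0) in LSK cells, and 3.44 and 0.20 in CD45-negative cells. 11 other ways of processing were tried, plus 2 chosen after seeing the data, which were no scaling and the brightest probe above background on both arrays. Lists were also read without genes saturated on any array, likewise chosen after seeing the data. With 1 array per group there is no test, and the number of arrays limits the precision. The calculation of measured folds was tested on simulated data in which all arrays had the same detected spots. Bounds could not arise there and were not tested, nor was the choice between scalings.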

Additional observations from a re-analysis of the deposited data

Results flagged for a closer look

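With the scaling used, Aqp2, Aqp3 and Aqp8 differed by day in opposite directions in the 2 sorts, and the difference was not tested. Each sort has 1 array per day. For Aqp2 the difference by day in LSK cells minus that in CD45-negative cells was 6.93, from 0.67 in LSK cells and -6.26 in CD45-negative cells. For Aqp8 it was at least 2.49, from bounds of 0.46 in LSK cells and -2.03 in CD45-negative cells. With the spike-in shift no bound could be set for Aqp8 in CD45-negative cells, so the opposite directions of Aqp8 rest on the scaling. For Aqp3 it was -0.99 or lower, from bounds of -0.56 in LSK cells and 0.43 in CD45-negative cells.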

How the results depend on the processing

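Of 104 counts of aquaporins past 2-fold under the alternatives, 83 stayed within 1.5 times the reported count and 21 did not. Of 306 single differences, 13 changed sign. 10 of these belong to 4 differences reported as under 2-fold: Aqp2 between the sorts at day 10 (-0.85 with the spike-in shift), Aqp9 in LSK cells, and Aqp11 in LSK cells and between the sorts at day 0. The other 3, reported as at least 2-fold, are all of Aqp11: in CD45-negative cells, day 10 against day 0, it was 2.02 with the spike-in shift and 0.21 without scaling, and LSK against CD45-negative at day 10 it was -0.50 with the spike-in shift. The spike-in shift and no scaling differ by a constant from the scaling used, and the cause of that constant was not tested. Aqp2 at day 10 was lower than at day 0 in CD45-negative cells under all alternatives run, at -6.36 to -3.01.

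In CD45-negative cells by day, the reported count of 0 higher became 1 with cyclic loess, 2 with the spike-in shift, 1 without a detection filter and 1 without scaling, and the 4 lower became 1 with the spike-in shift and 2 without scaling. With the probe above background on both arrays, Aqp9 joined the lower genes and the count was 5. In LSK cells by day, 0 higher became 1 without a filter, and 2 lower became 0 with normexp, 0 where both arrays had to be above background and 0 without scaling. For LSK against CD45-negative at day 10, 1 higher became 0 with normexp, quantile, cyclic loess, the spike-in shift and no scaling, 2 with the mean over probes and 4 without a filter, and 2 lower became 1 with normexp and 1 with both arrays above background. At day 0, 0 higher became 4 with the spike-in shift and 3 without a filter.

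Among genes measured on both arrays and past 2-fold, bounds left out, the higher share in CD45-negative cells by day was 56.9%, against 99.0% with the spike-in shift and 93.6% without scaling. In LSK cells it was 35.0%, against 16.1% and 69.8%. For LSK against CD45-negative it was 46.7% at day 10, against 0.9% and 18.7%, and 55.2% at day 0, against 95.3% and 83.6%. Signals of Aqp3, Aqp5, Aqp7 and Aqp8 lie near background, which limits their folds to bounds. No paired analysis was possible because each group has 1 array.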

Other observations

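A probe named LOC100046616, a predicted gene that is not one of the 9 aquaporins but is annotated as similar to aquaporin 5, was above background only in LSK cells at day 0. Its signal was 14.4 in LSK cells at day 10 and 55.8 at day 0, and 4.91 in CD45-negative cells at day 10 and 3.48 at day 0. Aqp5 itself was above background on the same array. Mip, Aqp6 and Aqp12, the other aquaporins on the array, were not above background on any of the 4 arrays.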
